A study of Mus musculus with 19 samples.

Results

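The EGR genes and their NAB corepressors were followed as a family of 6 genes, Egr1, Egr2, Egr3, Egr4, Nab1 and Nab2, in RNA sequencing of mouse dorsal hippocampus. The members were the rows whose Ensembl identifier carries one of these symbols, 6 of the 51789 genes in the table, and all 6 passed the filter on low counts in both experiments. All 19 libraries came from male C57BL/6J mice aged 2 to 4 months. In experiment 1 every mouse had the genotype tTA+ and was exposed to SOR, an abbreviation that the labels do not spell out. Of these, 5 mice were DN+, carriers of Nr4ADN, a dominant-negative form of the Nr4A nuclear receptors, and 6 were DN- control littermates. In experiment 2 all mice were DN-, 4 exposed to SOR (3 tTA+, 1 tTA-) and 4 taken from the homecage (2 tTA+, 2 tTA-). tTA is the tetracycline transactivator, a protein that drives transgenes placed behind a tet promoter, and the promoter that drives tTA itself is not given in the sources used here. Both experiments hold tTA+ DN- mice exposed to SOR, but no library is common to both, so a difference between the experiments cannot be told apart from a batch.

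The genes lie on 5 chromosomes of GRCm38 (GENCODE M21). Egr1 (ENSMUSG00000038418.7) spans 34859823 to 34864984 on the plus strand of chromosome 18, and Egr2 (ENSMUSG00000037868.15) 67535475 to 67542188 on the plus strand of chromosome 10. Egr3 (ENSMUSG00000033730.3 in the table) spans 70077203 to 70082614 on the plus strand of chromosome 14, and Egr4 (ENSMUSG00000071341.4) 85511121 to 85513589 on the minus strand of chromosome 6. Nab1 (ENSMUSG00000002881.14) spans 52457294 to 52500679 on the minus strand of chromosome 1, and Nab2 (ENSMUSG00000025402.12) 127660918 to 127668568 on the minus strand of chromosome 10. All 6 are protein-coding. Nab2 was the 1 member that overlapped other annotated genes, all on the opposite strand: 40 bases of its exons overlapped Stat6, 151 overlapped Nemp1 and 1050 overlapped the antisense gene Gm16229. Gm16229 had at most 4 counts in any library, Nemp1 had 99 to 498 and Stat6 had 264 to 693. Whether the counting used strand is not given in the sources used here, so reads in those stretches cannot be assigned between Nab2 and its neighbours.

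EGR proteins (early growth response) are zinc finger transcription factors that bind GC-rich sites in promoters. In hippocampal neurons their genes are immediate early genes: synaptic activity switches them on within minutes through ERK signalling, the serum response factor SRF and CREB, without new protein synthesis. NAB1 and NAB2 bind a domain shared by EGR1, EGR2 and EGR3 and turn these activators into repressors, and Nab2 is itself a target of EGR proteins, which closes a feedback loop.

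Promoter sequences show which signals the members could receive, and RefSeq (GRCm38.p6) held entries for 4 of them: Egr2, Egr4, Nab1 and Nab2. The 250 bases before each annotated start were searched on both strands for the EGR site GCGNGGGCG, found in 4.7% of 32851 such promoters, and for the CArG box bound by SRF, found in 1.47%. The full cyclic AMP response element TGACGTCA, the site of CREB, was found in 1.55%, and its half-site TGACG, which the full element also contains, in 17.8%. Before the Egr4 start (position 85513589), the window chr6:85513590-85513839 on the minus strand held 2 half-sites, in capitals below, and neither a CArG box nor an EGR site.
Egr4: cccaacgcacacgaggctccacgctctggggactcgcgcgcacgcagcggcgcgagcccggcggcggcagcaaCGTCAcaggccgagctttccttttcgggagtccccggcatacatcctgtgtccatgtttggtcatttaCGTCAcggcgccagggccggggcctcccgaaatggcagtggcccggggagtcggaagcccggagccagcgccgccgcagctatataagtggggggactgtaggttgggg

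Egr2 has 5 annotated starts, and 4 of the windows held a CArG box. The stretch chr10:67537793-67537822 on the plus strand lay before 3 of them and joined a CArG box to a half-site (both in capitals). Nab1 had 3 matches to the EGR site in its window, the first beside a half-site. These lay in chr1:52500564-52500593, chr1:52500539-52500568 and chr1:52500468-52500497 on the minus strand, and are printed in that order with the matches in capitals. No searched motif was found in the Nab2 window, which lies before a start at 127666703. That window, the 3 Nab1 stretches and the Egr2 stretch all lie inside the longer gene models of GENCODE given above. A match is a run of letters and not a measured binding site.
Egr2 CArG box: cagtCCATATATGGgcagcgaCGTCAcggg
Nab1 site 1: cggcCGCCCACGCcgggatctgCGTCActc
Nab1 site 2: cactcggccgcGCGTGGGCGggagccggag
Nab1 site 3: cgcggggcgggGCGGGGGCGgcggaggtgg

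Libraries held 22258159 to 66991576 counts. SOR replicate 3 of experiment 2 was the smallest. Markers of neurons, dentate granule cells and CA1 were found in every library. The summed level of 5 neuronal markers was 3540 to 4770 CPM (counts scaled to library size, with TMM factors). That of 5 dentate granule cell markers was 228 to 437 CPM and that of 4 CA1 markers 320 to 436 CPM. Markers of other regions were found too, with sums of 49.2 to 122 CPM for 4 cortex genes and 32.4 to 59.8 CPM for 4 thalamus genes. Markers of choroid plexus, the secretory tissue beside the hippocampus, varied most, from 23 to 4180 CPM over 8 genes. Because Egr2 is known above all for myelination by Schwann cells, 4 Schwann cell markers were read too, and their sum was 2.26 to 3.14 CPM in every library. In bulk tissue, fewer cells of a type and less RNA per cell cannot be told apart.

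Levels of different members were compared per length, as RPKM (CPM per kilobase of merged exons). Nab1 had the highest mean in all 4 groups, 12.2 to 13.0 RPKM, and Egr2 the lowest, 0.25 to 0.71 RPKM. In the homecage the order was Nab1 at 12.2 ± 1.37 RPKM (SD, n = 4), Nab2 at 5.85 ± 0.336, Egr1 at 4.31 ± 0.181, Egr4 at 2.85 ± 0.132, Egr3 at 2.28 ± 0.421 and Egr2 at 0.25 ± 0.0903. The ranges over libraries overlapped there for Egr4 and Egr3 and for no other neighbours. After SOR in experiment 2 the order was the same, with Nab2 at 7.12 ± 0.606 RPKM and Egr1 at 6.67 ± 1.23 (SD, n = 4), whose ranges overlapped. In both groups of experiment 1 Egr1 ranked above Nab2 and Egr3 above Egr4. Egr1 was at 9.56 ± 2.56 RPKM in the controls (SD, n = 6) and 7.65 ± 0.872 RPKM in the DN mice (SD, n = 5). Egr3 and Egr4 overlapped in both of those groups, while Nab1 and Egr1, and Egr1 and Nab2, overlapped in the controls only. Using the longest transcript in place of merged exons gave the same order in all 4 groups.

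**Figure D1:**
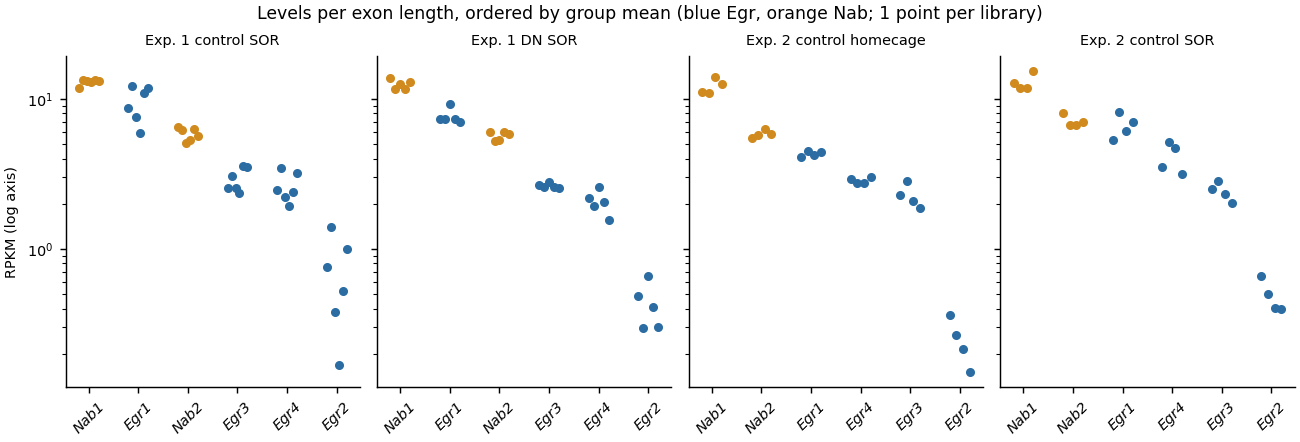
Level of each member in RPKM (log axis) in the 4 groups, 1 point per library, ordered by the mean of the group, with Egr genes in blue and Nab genes in orange. Nab1 is at the left and Egr2 at the right of every panel, and Egr1 stands above Nab2 in experiment 1 and below it in experiment 2.

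The first comparison asked how the family responded to SOR in mice without DN, and 4 of the 6 members were higher after SOR in every library than in any homecage library. These were Egr1, Egr2, Egr4 and Nab2, with log2 fold changes of 0.28 to 1.01. None was called by edgeR at an adjusted p under 0.05, at which 0.0897% of 22305 genes were called. At an unadjusted p under 0.05, 4 members were higher, where 3.67% of all genes were, and groups without overlap, the SOR libraries above, occurred in 3.06% of all genes. limma-voom called 0 members and DESeq2 called 1, Egr1, each with 4 at an unadjusted p under 0.05. DESeq2 called 0.63% of the 18410 genes it gave an adjusted p, a larger share than edgeR. The median log2 fold change of the 6 members was 0.41, against 0.01 over all genes tested.

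Egr1, known as Zif268 and tied to long-term memory by gene deletion in mice, measured 24.01, 36.8, 27.3 and 31.6 CPM in SOR replicates 1 to 4. Homecage replicates 1 to 4 gave 18.4, 20.2, 18.8 and 19.8 CPM. The homecage libraries lay within 1.09-fold of each other and the SOR libraries within 1.53-fold, with no overlap. By edgeR the log2 fold change was 0.63 (SE 0.125), or 1.55-fold, at an unadjusted p of 3.32e-04 and an adjusted p of 0.157. DESeq2 gave nearly the same change, 0.63, with an adjusted p of 0.00268, so the call depended on the tool. Over all 18 alternatives run for this gene the adjusted p ranged from 0.00268 to 0.998. By edgeR it was 0.05025 with no filter on low counts and 0.0549 without SOR replicate 3.

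Egr2, also called Krox20, a regulator of hindbrain segments and of peripheral myelin, was the least abundant member and had the widest change. The SOR libraries, in the order of their replicate numbers, held 2.25, 1.70, 1.37 and 1.35 CPM. Those from the homecage gave 1.24, 0.909, 0.732 and 0.513 CPM. The lowest SOR library stood just above the highest homecage library. The counts behind these values were 29 to 108 after SOR and 23 to 50 in the homecage, the fewest of any member. The log2 fold change was 1.01 (SE 0.285), or 2.02-fold, at an edgeR unadjusted p of 0.00427 and an adjusted p of 0.5. With tTA genotype as a covariate it was 1.17 (SE 0.223).

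Egr4, a member best known for its role in male germ cells, reached 7.61, 11.02, 10.2 and 6.78 CPM after SOR, whereas homecage mice had 6.26, 5.92, 5.87 and 6.46 CPM. SOR replicates 2 and 3 were far above the homecage libraries and replicates 1 and 4 just above them. By edgeR the log2 difference was 0.53 (SE 0.162; unadjusted p 0.00674, adjusted p 0.579).

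Egr3, which is required for muscle spindles and is described as a regulator of Arc in neurons, was the EGR gene with the smallest change. Levels of 11.02, 12.4, 10.2 and 8.95 CPM after SOR stood beside 10.1, 12.6, 9.27 and 8.20 CPM without it. The groups overlapped almost entirely, and edgeR put the log2 difference at 0.09 (SE 0.151; adjusted p 0.867). It was 0.0016 without homecage replicate 4, 0.0022 without SOR replicate 2 and 0.21 without homecage replicate 2. With tTA as a covariate it was 0.16, and in tTA+ mice alone 0.27.

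Of the corepressors, Nab2 had 23.5, 19.7, 19.8 and 20.7 CPM in the SOR mice, compared with 16.2, 16.9, 18.6 and 17.2 CPM in homecage mice. All SOR libraries lay above all homecage libraries, by a narrow margin. The log2 fold change was 0.28 (SE 0.0957), at an edgeR unadjusted p of 0.0127 and an adjusted p of 0.61. In tTA+ mice alone it was 0.16 (SE 0.132), against 0.72 for Egr1, 1.23 for Egr2 and 0.59 for Egr4, at an edgeR adjusted p of 0.998 for each. Nab1, the corepressor described as constitutively expressed, had 52.7, 48.2, 48.2 and 62.8 CPM in the SOR mice, compared with 45.5, 45.2, 57.1 and 51.6 CPM in homecage mice. The groups overlapped, and edgeR put the log2 difference at 0.09 (SE 0.113; adjusted p 0.812). Its direction turned when SOR replicate 4, the highest library, was left out (-0.0043).

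**Figure D2:**
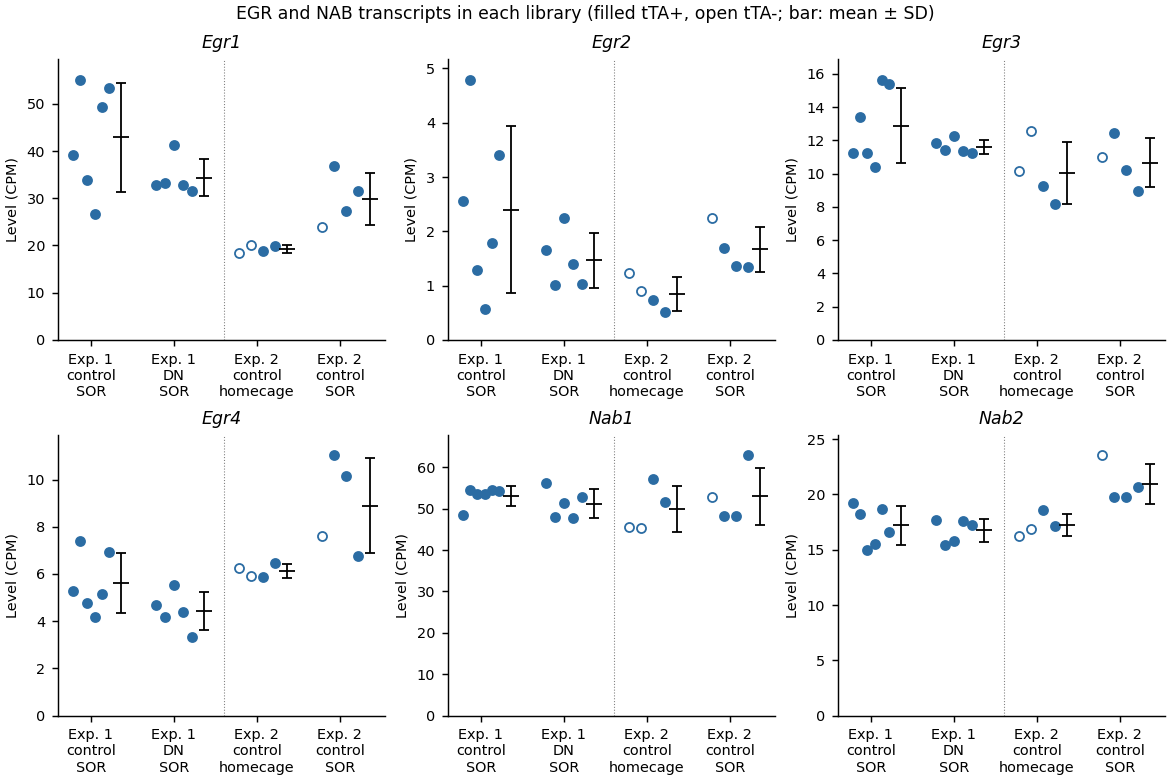
Level of each member in every library in CPM, by group, with filled points for tTA+ mice, open points for tTA- mice and a bar for the mean ± SD. In experiment 2 all SOR libraries lie above all homecage libraries for Egr1, Egr2, Egr4 and Nab2, and in experiment 1 the DN and control libraries overlap for every member, with the wider range in the controls for all but Nab1.

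Whether members responded differently was tested within libraries, as the log2 ratio of 2 members, for all 15 pairs. The Egr2 to Egr3 ratio was -2.66 ± 0.272 after SOR and -3.54 ± 0.391 in the homecage (SD, n = 4 each), and the Egr1 to Nab1 ratio was -0.83 ± 0.322 and -1.36 ± 0.181. In these 2 of the 15 ratios the groups did not overlap, and both had an exact two-sided permutation p of 0.0286, the smallest that 70 arrangements allow. Adjusted over the 15 ratios by Benjamini-Hochberg the p was 0.214 for each. The Egr1 to Egr3 ratio was 1.48 ± 0.29 against 0.96 ± 0.249, and the Egr2 to Nab1 ratio was -4.97 ± 0.414 against -5.86 ± 0.62, each with an exact permutation p of 0.0571 and overlapping groups. Differences in the log2 ratios ran from -0.41 (Egr3 to Egr4) to 0.89 (Egr2 to Nab1). With 70 arrangements, 2 separated ratios of 15 cannot reach an adjusted p under 0.05, so this adjusted p does not bear on whether members differed.

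Of 8 choroid plexus markers, edgeR called 0 after SOR and 3 had an unadjusted p under 0.05, while all 8 fitted log2 fold changes were above 0. Their sum was 24.0 to 2220 CPM after SOR and 47.3 to 178 CPM in the homecage. SOR replicates 1 and 2 held 1010 and 2220 CPM, and replicates 3 and 4 held 24.0 and 60.3 CPM. In replicates 3 and 4, Egr1, Egr2, Egr4 and Nab2 were above every homecage library too. The part of choroid plexus in the differences was not tested. Without SOR replicate 1 the log2 fold changes were 0.73 for Egr1, 0.83 for Egr2, 0.60 for Egr4 and 0.22 for Nab2. Without SOR replicate 2 they were 0.52, 1.01, 0.41 and 0.31 in the same order.

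The second comparison asked whether DN altered the family after SOR, and all 6 members had lower fitted levels with DN, none of them called. edgeR called 0 of 6 at an adjusted p under 0.05, where 0.00893% of 22391 genes were called, and DESeq2 and limma-voom called 0. Each tool gave 1 member at an unadjusted p under 0.05. In edgeR this was Egr4, lower with DN, as were 1.81% of all genes at that p. Leaving out 1 library moved its unadjusted edgeR p between 0.00914 and 0.102. Without control replicate 4 the unadjusted edgeR p of Egr1, Egr2 and Egr3 was 0.0182, 0.0381 and 0.0342. The groups overlapped for every member, and 0.103% of all genes had every DN library below every control. A log2 fold change below 0 was found for 50% of all genes. The median log2 fold change was -0.33 for the 4 Egr genes and -0.04 for the 2 Nab genes, against 0.00 over all genes tested.

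Egr1 measured 32.8, 33.2, 41.2, 32.8 and 31.5 CPM across DN replicates 1 to 5, and its controls ran from 26.6 to 55.1 CPM with a median of 44.2. Control replicates 2, 5 and 6 stood above every DN library, and control replicate 4 below every one. The log2 fold change was -0.32 (SE 0.194), at an edgeR unadjusted p of 0.131 and an adjusted p of 0.999. Egr2 was at 1.65, 1.005, 2.24, 1.39 and 1.02 CPM with DN, and its controls ran from 0.568 to 4.79 CPM with a median of 2.18. Its spread was the widest of the family, 8.43-fold between control libraries and 2.23-fold between DN libraries, and the log2 fold change was -0.70 (SE 0.497), at an edgeR adjusted p of 0.999. Without control replicate 2, the highest library, that change was -0.37 (-0.70 with it), and without control replicate 4, the lowest, it was -0.91.

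Egr4 was at 4.68, 4.18, 5.53, 4.38 and 3.35 CPM with DN, and its controls ran from 4.18 to 7.40 CPM with a median of 5.22. The lowest control lay at the level of the second lowest DN library. The log2 fold change was -0.34 (SE 0.149), at an edgeR unadjusted p of 0.0340 and an adjusted p of 0.999. Egr3 was at 11.8, 11.4, 12.3, 11.4 and 11.2 CPM with DN, within 1.09-fold, and its controls ran from 10.4 to 15.6 CPM with a median of 12.3. Its log2 fold change was -0.15 (SE 0.097), and it was -0.086 without control replicate 5 and -0.093 without control replicate 6. Mean ± SD levels in the 5 DN and 6 control libraries were 51.2 ± 3.51 and 53.1 ± 2.35 CPM for Nab1. For Nab2 they were 16.8 ± 1.06 and 17.2 ± 1.75 CPM. Their log2 fold changes were -0.05 (SE 0.046) and -0.04 (SE 0.0696). With 1 library left out, Nab1 ran from -0.09 (without DN replicate 1) to -0.029 (without DN replicate 4) and Nab2 from -0.072 (without control replicate 3) to -0.0019 (without control replicate 1). None of the 15 ratios between members separated DN from control libraries, and the smallest exact permutation p was 0.134.

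Here choroid plexus markers summed to 29.6 to 1660 CPM with DN and 23 to 4180 CPM in the controls, and all 8 had lower fitted levels with DN. Control replicates 1 and 2 and DN replicate 2 were rich in them (4180, 1370 and 1660 CPM), while control replicates 5 and 6, at 27.4 and 23 CPM, were also high in Egr1. The part of these cells in the spread of Egr2, highest in control replicate 2, was not tested.

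**Figure D3:**
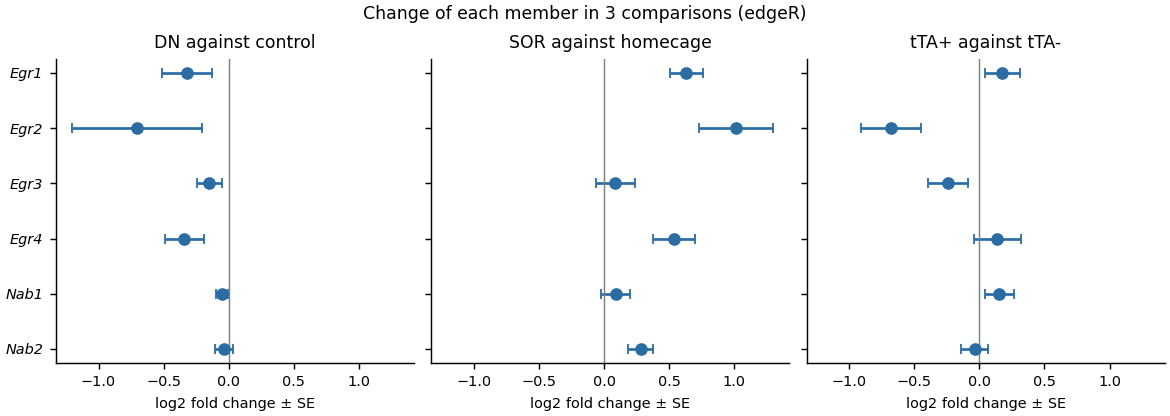
Log2 fold change of each member with its standard error, from edgeR, for DN against control, SOR against homecage and tTA+ against tTA-. In the middle panel Egr1, Egr2, Egr4 and Nab2 stand to the right of 0 by more than their standard errors, and in the left panel the point of every member stands to the left of 0.

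The third comparison set tTA+ against tTA- mice of experiment 2, with exposure in the model, and so asked what tTA did without DN. edgeR called 0 members, where 0.358% of 22904 genes were called, and DESeq2 and limma-voom called 0. Each tool gave 1 member at an unadjusted p under 0.05, which in edgeR was Egr2, lower in tTA+ mice, as were 3.44% of all genes at that p. Within each exposure the tTA- mice were the highest in Egr2: 2.25 CPM against 1.35 to 1.70 CPM after SOR, and 1.24 and 0.909 CPM against 0.732 and 0.513 CPM in homecage mice. By edgeR the log2 fold change was -0.68 (SE 0.228), at an unadjusted p of 0.0135 and an adjusted p of 0.567. With the replicate number as a block, tTA differed only between the mice numbered 2, and the other mice entered through the exposure effect. The Egr2 value was then -0.14 (unadjusted edgeR p 0.795).

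Dentate granule cell markers also separated these mice, with a sum of 228 to 276 CPM in tTA+ and 417 to 437 CPM in tTA- libraries, 3 of 5 genes called. All 5 had an unadjusted edgeR p under 0.05, and 1 of the 5 was above 0, against the direction of the sum. The sum of the cortex markers was 73.3 to 86.4 CPM against 49.2 to 51.5 CPM, with 1 of 4 genes called and 2 of 4 log2 fold changes above 0. The part of either in the Egr2 difference was not tested. No other member had an unadjusted edgeR p under 0.05. The log2 fold changes were 0.18 (SE 0.133) for Egr1, -0.24 (SE 0.153) for Egr3, 0.14 (SE 0.18) for Egr4, 0.15 (SE 0.114) for Nab1 and -0.04 (SE 0.103) for Nab2. Without SOR replicate 1, the 1 tTA- mouse exposed to SOR, these values became 0.0018 for Egr1, -0.38 for Egr3, 0.02 for Egr4, 0.26 for Nab1 and 0.11 for Nab2. Egr3 was -0.13 without homecage replicate 2, and Nab1 was 0.092 without homecage replicate 3. Egr2 was -0.75 without SOR replicate 1 (unadjusted edgeR p 0.0518) and -0.57 without homecage replicate 1 (unadjusted edgeR p 0.0538).

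Between animals of experiment 1, Egr1 varied together with Egr2, Egr3 and Egr4. Over its 11 libraries Egr1 correlated with Egr2 at r = 0.899 (rho 0.864), with Egr3 at r = 0.886 (rho 0.818) and with Egr4 at r = 0.867 (rho 0.9), on log2 CPM. Egr2 and Egr4 correlated at r = 0.886 (rho 0.927). A permutation test of 100000 draws gave a two-sided p of 1.3e-04, 5e-04, 4.7e-04 and 4.1e-04 for these 4 values of r, and 0.00375 for each after Benjamini-Hochberg adjustment over the 30 correlations computed in both experiments. For rho the permutation p values in the same order were 0.00128, 0.0032, 4e-04 and 1.1e-04, and 0.0128, 0.024, 0.006 and 0.0033 adjusted. The threshold was not passed by Egr3 with Egr2 (r = 0.657, adjusted permutation p 0.123; rho 0.709, adjusted 0.107) or with Egr4 (r = 0.671, adjusted permutation p 0.123; rho 0.673, adjusted 0.107). Within the DN group 4 of 5 libraries lay between 31.5 and 33.2 CPM of Egr1, and no correlation was computed within a group. Without the 2 libraries farthest from the median of the first gene, r was 0.789, 0.872, 0.683 and 0.915 for the 4 pairs. Centred on the group means, to remove DN, it was 0.895, 0.869, 0.835 and 0.9.

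Cortex markers moved in part with Egr1 in these libraries. Their sum (4 genes) was 122, 117 and 115 CPM in control replicate 5, DN replicate 3 and control replicate 6, and 83 to 97 CPM in the others. Those 3 libraries were among the 4 highest in Egr1. The highest of all in Egr1, control replicate 2, had 96.6 CPM of cortex markers, and the lowest, control replicate 4, had 85.8 CPM. The part of cortex tissue in the correlations was not tested.

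No correlation with a corepressor passed the threshold. Egr1 had r = 0.427 with Nab2 (adjusted permutation p 0.373; rho 0.327, adjusted 0.428) and r = 0.266 with Nab1 (adjusted permutation p 0.577; rho 0.391, adjusted 0.375) in experiment 1. This held for all 9 pairs with a Nab gene there. That the Egr to Egr correlations exceed those with a Nab gene was not tested. In experiment 2 the homecage and SOR libraries formed separate clusters of 4 in Egr1, too few for a correlation within either. None of its 15 pairs passed an adjusted permutation p of 0.05 over all 8 libraries. Centred on the group means, r over the 8 libraries was -0.327 for Egr1 with Egr2, 0.192 for Egr1 with Egr3, 0.38 for Egr1 with Egr4 and -0.0917 for Egr2 with Egr4. For these pairs the centred r was lower than in experiment 1. For Egr2 with Egr3 it was 0.623, against 0.619 in experiment 1, and for Egr3 with Egr4 0.339 against 0.608. The centred values and their difference between experiments were not tested.

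**Figure D4:**
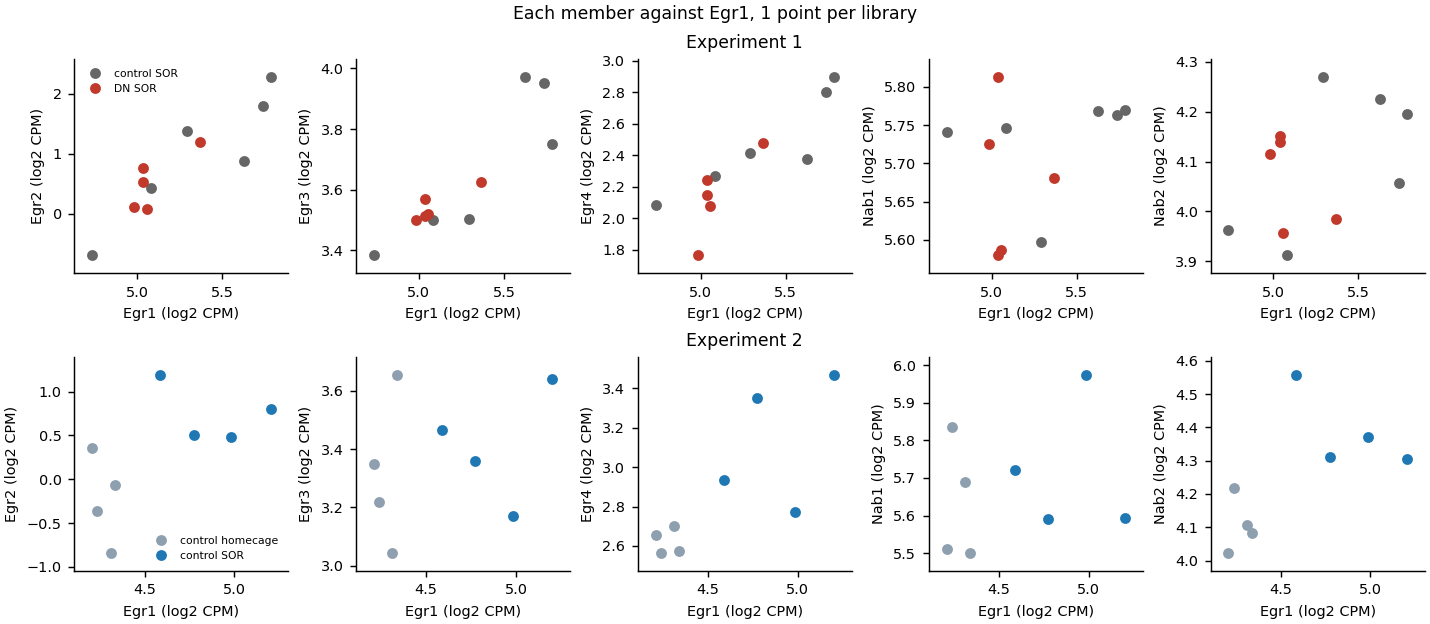
Each of the other members against Egr1, both in log2 CPM, 1 point per library, with experiment 1 in the upper and experiment 2 in the lower row and groups in colour. Over the 11 libraries of experiment 1 Egr2, Egr3 and Egr4 climb with Egr1, with r of 0.899, 0.886 and 0.867, while 4 of the 5 DN libraries sit close together in Egr1, and in experiment 2 the SOR libraries sit to the right of the homecage libraries.

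Genes with the most similar pattern were sought among the 21740 genes tested in both experiments, by the lower of 2 Pearson correlations of log2 CPM, over 11 libraries of experiment 1 and 8 of experiment 2. The second includes the step between exposures, and the values describe a ranking. Nearest to Egr1 were Ppp2r1b, a scaffold subunit of protein phosphatase 2A (r = 0.864 and 0.881), Fosb, an AP-1 transcription factor (0.917 and 0.828), and Atxn1 (0.863 and 0.821). Nearest to Egr2 were Fosb again (0.849 and 0.837), the adaptor Dok3 (0.822 and 0.859) and the nuclear receptor gene Nr4a1 (0.916 and 0.794). Egr1 and Egr2 thus shared Fosb as a neighbour, the 1 gene that 2 members had in common.

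Nearest to Egr3 were Rhobtb2 (0.904 and 0.773), Prdm2 (0.753 and 0.842) and the transcription factor gene Ets2 (0.752 and 0.868). Nearest to Egr4 were Msl1, a subunit of a histone acetyltransferase complex (0.926 and 0.924), the noncoding RNA Gm48695 (0.842 and 0.837) and Spry4, an inhibitor of ERK signalling (0.825 and 0.823). For Nab1 they were Ermn, a cytoskeletal gene of oligodendrocytes (0.929 and 0.889), the endocytic gene Eps15 (0.858 and 0.885) and the mitochondrial transport gene Rhot1 (0.861 and 0.853). For Nab2 they were the Integrator subunit gene Ints12 (0.861 and 0.875), Lrch3 (0.823 and 0.85) and the histone gene Hist1h2bc (0.81 and 0.959), which has near-identical copies. Of these neighbours Fosb had the largest change after SOR, 0.99 (SE 0.179) on the log2 scale, at an edgeR adjusted p of 0.0996. None was called in any of the 3 comparisons.

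Other immediate early genes were read beside the family, as a list of 11. For this and the next lists, the share of all genes at an unadjusted p under 0.05 in either direction was 7.6% after SOR, 3.83% with DN and 5.71% with tTA. The shares called were 0.0897%, 0.00893% and 0.358%. After SOR 2 of 11 were called, both higher: Arc, which encodes a synaptic capsid-like protein, at a log2 fold change of 0.79 (SE 0.0991, edgeR adjusted p 0.0131), and Fos at 1.17 (SE 0.182, edgeR adjusted p 0.0432). At an unadjusted p under 0.05 there were 5, all higher, as were 3.67% of all genes, and the list's median log2 fold change was 0.26. Egr1, Egr2 and Egr4, at 0.63, 1.01 and 0.53, lay within the range of this list, -0.18 to 1.17. With DN 0 of 11 were called by edgeR and 0 had an unadjusted p under 0.05, with a median of -0.13. All 11 log2 fold changes were below 0 with DN, from -0.62 to -0.05, as were those of the members. The smallest p there belonged to Fosb (-0.34, SE 0.166) and Arc (-0.62, SE 0.317). With tTA 0 of 11 were called, 3 had an unadjusted p under 0.05, and the smallest belonged to Fosl2 (-0.56, SE 0.125) and Jun (-0.35, SE 0.109).

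The kinases and factors that act upstream of Egr transcription (15 genes) held 0 calls by edgeR in each comparison. After SOR 2 had an unadjusted p under 0.05, both higher (3.67% of all genes were): Srf, the factor that binds the CArG box, at 67.9 ± 11 CPM against 55.9 ± 4.21 CPM (SD, n = 4 each; log2 fold change 0.28, SE 0.115), and its coactivator Mrtfa at 0.29 (SE 0.125). The edgeR adjusted p was 0.629 and 0.647. With DN none reached an unadjusted p under 0.05, and 10 of the 15 log2 fold changes were below 0. Creb1 (-0.06, SE 0.034) and Elk1 (-0.08, SE 0.0455) had the smallest p. By tTA there were 3, led by the kinase gene Rps6ka5, higher at 0.35 (SE 0.108), and Elk3, lower at -0.37 (SE 0.135).

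NAB2 represses through CHD4 of the NuRD deacetylase complex, and the 13 NuRD genes held 0 edgeR calls in any comparison. After SOR 2 had an unadjusted p under 0.05, Gatad2b lower at -0.30 (SE 0.124) and Mta2 higher at 0.20 (SE 0.0877). With DN and with tTA there were 0. All 13 log2 fold changes were below 0 with DN, from -0.0871 to -0.0059. With DN the smallest p belonged to Mbd3 (-0.09, SE 0.0469) and Gatad2a (-0.05, SE 0.0403), and with tTA to Chd3 (0.19, SE 0.109) and Mta3 (-0.11, SE 0.106).

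Genes described as EGR targets, a list of 15 that also holds Arc, had 1 call after SOR, Arc itself. No other target had an unadjusted p under 0.05 in that comparison; the next was Apoe at 0.29 (SE 0.171). The list's median log2 fold change was -0.01 after SOR, -0.04 with DN and 0.03 with tTA. The medians of all genes tested were 0.01, 0.00 and 0.01. Of the 15 targets 8 were below 0 after SOR, 10 with DN and 7 with tTA. With DN edgeR called 0 and 1 had an unadjusted p under 0.05, Mmp9, an extracellular protease gene, lower at -0.40 (SE 0.186), and the next was Ngfr, higher at 0.33 (SE 0.165). With tTA edgeR called 0 and 2 had an unadjusted p under 0.05, both higher, Ache at 0.34 (SE 0.107) and Th at 0.73 (SE 0.318).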

How the data were processed

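Counts per gene were deposited by the authors as 1 table of whole-number read counts. STAR, SAMtools 1.6, featureCounts 1.4.4 and the build mm10 are named per the submitters' processing notes. Their roles, the annotation and the use of strand are not given in the sources used here. RNA was extracted with Trizol and depleted of ribosomal RNA, per the labels' protocols. Of 51789 identifiers, 51596 were found in GENCODE M21 (GRCm38), 47611 in the same version. Columns were assigned by the sample name in each label.

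Each experiment was fitted alone over all genes that passed filterByExpr, with edgeR 4.0.16 quasi-likelihood F tests (TMM, robust, two-sided, R 4.3.3) and Benjamini-Hochberg adjustment, called under 0.05. Levels are TMM-scaled CPM, and log2 CPM uses a prior count of 2. Standard errors are the absolute log2 fold change over the square root of F. Alternatives used DESeq2 1.42.0, limma 3.58.1, other scalings, filters and thresholds, the replicate block, tTA as a covariate, the tTA+ mice by themselves, and leaving out 1 library at a time. The spread within groups exceeded counting noise (chi-square per degree of freedom 5.07 to 83.6), so none was merged. The labels do not say whether tissue was pooled, and p-values measure the spread between these samples. On simulated counts, with changed genes drawn from those averaging over 50 counts, in the SOR design (21942 genes), 83 of 100 genes changed 2-fold and 30 of 100 changed 1.5-fold were recovered. In the DN design (22139 genes) the numbers were 98 and 81 of 100. The changed genes were drawn at random, and recovery was not computed for the members. In the DN fit the standard error was 0.497 for Egr2 and 0.194 for Egr1, against 0.034 for Creb1. The recovered shares therefore cannot be read as those of the Egr genes.

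The members and lists were chosen with earlier results of these data known. Named genes were the members, the 3 most similar genes of each, and of each list the called genes and the 2 with the smallest p. The TGACG half-site and the ratios between members were added after values were seen.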

Additional observations from a re-analysis of the deposited data

Results flagged for a closer look

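Within the 24 sets of 1 member in 1 group, 2 held a library far from the rest of its group, where chance gives about 1 in 20. Egr1 in DN replicate 3 was at 41.22 CPM, the highest of its group, with a gap to the next library of 0.83 of the group's range. That library also held the most cortex marker RNA of the DN group, 117 CPM against 83 to 96.5 CPM. Nab1 in control replicate 1 of experiment 1 was at 48.39 CPM, the lowest of its group, with a gap of 0.822 of the range. That control library also held the most choroid plexus marker RNA of all libraries (4180 CPM).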

How the results depend on the processing

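No member was called under any alternative for DN against control or tTA+ against tTA-. For SOR against homecage, DESeq2 called 1 member, Egr1, and no other alternative called any. Every Egr gene kept its direction in each comparison under all alternatives. For Nab1, SOR against homecage turned to -0.03491 in tTA+ mice only and to -0.004337 without SOR replicate 4 (-0.004337 to 0.1601 with 1 library left out). For Nab2, tTA+ against tTA- turned to 0.1137 without SOR replicate 1 (-0.09667 to 0.1137). Those fits held fewer libraries, and the cause of the turns was not tested. With the replicate block 0 members were called in any comparison, and Egr1 after SOR was 0.616 (edgeR adjusted p 0.176). The block lowered the calls over all genes from 20 to 9 after SOR and from 82 to 0 with tTA. It left 2 with DN, where control replicate 6 has no partner. There it moved Egr1 from -0.32 to -0.21, Egr2 from -0.70 to -0.37 and Egr3 from -0.15 to -0.078, and Egr4 to -0.26 (unadjusted edgeR p 0.0846). With tTA it moved Egr1 from 0.18 to 0.34, Egr2 from -0.68 to -0.14, Egr3 from -0.24 to -0.14, Egr4 from 0.14 to 0.52, Nab1 from 0.15 to 0.0074 and Nab2 from -0.04 to -0.075. The labels tie replicate numbers to no shared litter, batch or day. Deviations from the group mean correlated at -0.05 to 0.194 between libraries of the same number in experiment 1 and at 0.0454 to 0.391 in experiment 2, so the numbers were not taken to pair the mice. Of the same-numbered pairs, 0 of 5 in experiment 1 and 1 of 4 in experiment 2 were each other's closest match.

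The background of calls over all genes moved more. After SOR it was 20, against 35 at an adjusted p under 0.1, 36 with no filter, 116 by DESeq2, 145 with all 19 libraries in 1 fit, 11 with tTA as a covariate and 0 in tTA+ mice only, and 1 to 50 with 1 library left out (50 without SOR replicate 3). With tTA it was 82, against 133 at 0.1, 265 with no filter, 255 by DESeq2 and 388 with all 19 libraries, and 10 to 290 with 1 left out (290 without SOR replicate 3). With DN it was 2 throughout. Depth limits Egr2 most, with 22 to 202 counts per library.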
